A study of Botryllus schlosseri with 42 samples.

Results

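A Kelch adaptor, an F-box adaptor and a ubiquitin-conjugating enzyme, 3 components of the ubiquitin system, were followed in whole colonies of Botryllus schlosseri, a colonial tunicate that replaces its zooids in a repeating budding cycle called blastogenesis. They are the contigs Bot_c2674, whose closest human homolog is Kelch-like protein 10 (KLHL10), Bot_c25439, whose closest human homolog is F-box only protein 24 (FBXO24), and CAP3_round1_contig_8583, whose closest human homolog is the ubiquitin-conjugating enzyme E2 R2 (UBE2R2). These 3 contigs were taken by their identifiers from the 50106 contigs of an assembly of expressed sequence tags. The study lists all 3 among the contigs that differed between these same libraries, so their difference between the groups is described here and is not independent evidence of its direction. Gene names are those given by the study, and no position in a genome is given.

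RNA of whole colonies reared in the laboratory was sequenced at 7 blastogenic stages. A1 and A2 come first, followed by B1 and B2, by C1 and C2 and lastly by D, which is takeover, the stage in which the old zooids are resorbed. At each stage there were 3 fertile libraries, whose label reads Hermaprhodite, and 3 infertile libraries, 42 in all, with no treatment in either group. In each group 2 libraries came from a genotype each (Fert801 and Fert841, Infert001 and Infert802) and the third from a pool of several genotypes (MixFert, MixInfert). By the methods of the study SB841 gave a fertile library and also entered the infertile pool, and the name SB802 occurs in both groups, as SB802a in the fertile pool and SB802d among the infertile. The other genotypes were in a single group, and for them genotype and fertility cannot be told apart. The deposited tables give group means only, from which the single libraries were recovered through the whole read pairs that add up to each mean. The recovered libraries were not assigned to genotypes. Numbers 1 to 3 order the libraries of a group at one stage by falling size factor, so that library 1 of one stage need not be library 1 of the next.

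Ubiquitin is a small protein that is attached to other proteins, most often to mark them for destruction by the proteasome. An activating enzyme passes it to a conjugating enzyme (E2), and a ligase (E3) then selects the substrate. UBE2R2, a close relative of the yeast enzyme Cdc34, is an E2 that works with cullin-based ligases. FBXO24 carries an F-box, the motif by which such proteins present substrates to the SCF ligase, which is built on the scaffold cullin 1. KLHL10 belongs to the BTB-Kelch proteins, which present substrates to ligases built on cullin 3. In mouse KLHL10 is made in spermatids and its loss makes males infertile, and in Drosophila its homolog works with cullin 3 when spermatids separate. During spermatogenesis in animals much of the protein and most of the cytoplasm of the spermatid is removed.

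The depth ranged from 2982361 to 11079490 read pairs in contigs for which library values were recovered. A normalized count is the authors' count, in which each pair counts as 2, divided by the size factor of the library. Contigs named by the study were used to check the labels, although the study chose them on these samples. They are called here testis contigs (tsk-1, tsk-2, tsk-6, outer dense fiber 3-like 2 and fibrous sheath-interacting protein 2) and egg contigs (vitellogenin, ldlr, zp-1). Where the study stained RNA in colonies, tsk-2 was also in egg precursors and vitellogenin also on the testes. Staining was also seen in secondary buds for ldlr and along the endostyle for zp-1. Outer dense fiber 3-like 2 and fibrous sheath-interacting protein 2 were not stained, so the sets are not strict for testis or egg. From A1 to B2 the summed testis contigs were between 4114 and 11619 normalized counts in 11 fertile libraries. The exception was fertile library 3 at A2, with 510 for the testis contigs, where the other libraries of that stage had 8137 and 5093, and with 129 for the egg contigs, where the others had 5370 and 9071. In the infertile libraries the testis sum was between 45.8 and 230, with the exception of infertile library 1 at B2, C1 and C2, which had 813, 2000 and 2936. In those 3 libraries ldlr and zp-1 together had 9.98, 14.8 and 19.0 normalized counts, against 176 to 2035 in the fertile libraries from B2 to C2, while vitellogenin had 68.2, 136 and 678 and was not recovered in fertile libraries of these stages, where its mean was above the limit of the recovery. The germ cell contigs of the study (nanos, vasa and 2 for piwi) summed to 1745 to 10474 in fertile and to 428 to 3602 in infertile libraries. Of the markers, tsk-2 was at 0 in 13 and zp-1 in 5 of the 21 infertile libraries, and none was at 0 in every library of a group. These 4 libraries stood apart from the others of their group for the testis contigs. The limma differences of the 3 ubiquitin-pathway contigs at those stages, and their correlations within each group, are given with and without them. Stage means and correlations with other contigs are given with all libraries only. Whether infertile library 1 is the same colony at the 3 stages was not assigned here.

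The 3 ubiquitin-pathway contigs were abundant in nearly all fertile libraries of the early and middle cycle and close to the limit of detection in most infertile libraries. Over the 21 infertile libraries each of the 3 contigs was under 30 normalized counts in 18 and at 100 or more in 3, and these 3 were infertile library 1 at B2, C1 and C2 for every contig. No read pair at all was found in 6 infertile libraries for KLHL10, in 4 for FBXO24 and in 1 for UBE2R2, and none of the 21 fertile libraries was at 0. KLHL10 stands here for Bot_c2674 alone. Another contig of that name, CAP3_round1_contig_433, had 201 normalized counts in infertile library 3 at A1. In the fertile libraries the median was 547 for KLHL10, 639 for FBXO24 and 862 for UBE2R2. Each contig was under 30 in 6 of the 21 fertile libraries. At 100 or more were 14 for KLHL10, 12 for FBXO24 and 14 for UBE2R2. Levels are not compared between the contigs, since contig lengths were not used here.

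**Figure D1:**
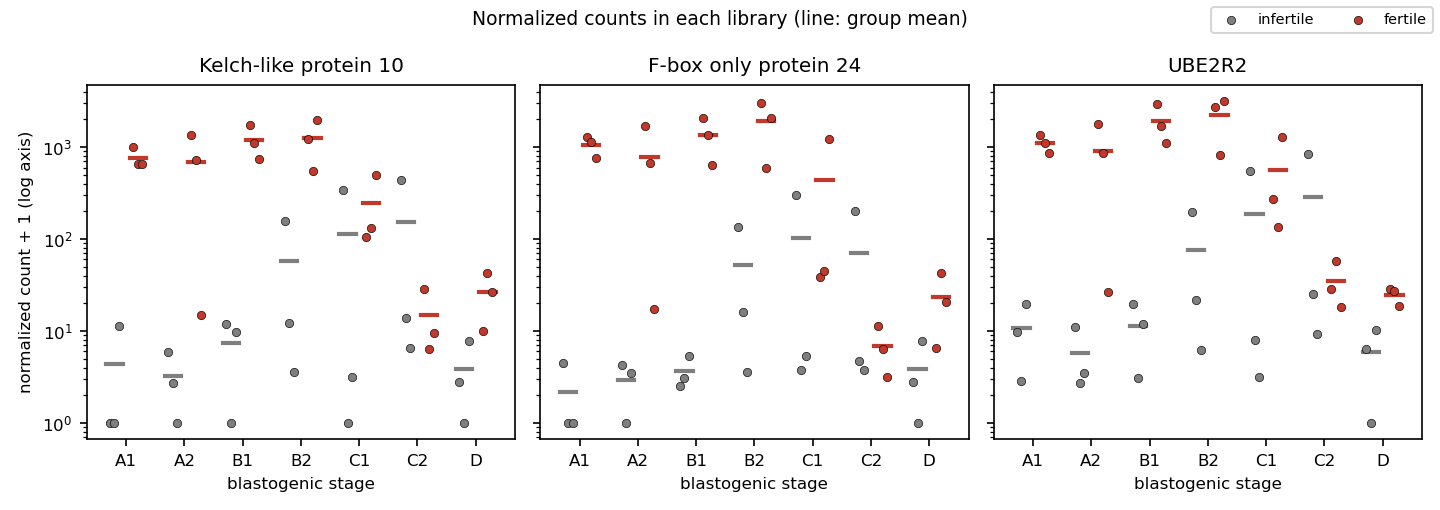
Normalized count + 1 on a log axis for KLHL10, FBXO24 and UBE2R2 at the 7 blastogenic stages, with each of 42 libraries as a point and the group mean as a line. From A1 to B2 the fertile points of each contig sit above the infertile points, with fertile library 3 at A2 as the low fertile point (13.9, 16.2 and 25.4), and at C2 the highest point is infertile library 1 (436, 202 and 832).

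At stage A1 all 3 contigs were higher in fertile colonies. KLHL10, the Kelch adaptor, had 993, 652 and 656 normalized counts in the fertile libraries and 0, 0 and 10.3 in the infertile ones. The highest infertile library held 5 read pairs, and a count of 0 allows up to 5.30 and 5.48 normalized counts in the other libraries. FBXO24, the F-box adaptor, had 1280, 1139 and 769 in the fertile libraries and 3.54, 0 and 0 in the infertile ones, where 2 read pairs made up the whole group. UBE2R2, the conjugating enzyme, had 1354, 1119 and 865 in the fertile libraries and 8.84, 1.83 and 18.5 in the infertile ones. The fertile and infertile groups did not overlap for any of the 3, and the fertile libraries lay within a factor of 2 of each other.

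The ratio of pooled read pairs, scaled for depth, was 254 for KLHL10 (95% interval 109 to 784), 873 for FBXO24 (241 to 7212) and 122 for UBE2R2 (73.7 to 218). These intervals cover counting error only and are wide because the infertile counts were few. No infertile library held more than 3 read pairs of FBXO24, and with 3 pairs taken for each its ratio of means was 188. On the log2(normalized count + 1) scale, which understates the change of low contigs, the difference was 8.39 ± 1.00 (SE, n = 3 per group) for KLHL10, 9.29 ± 0.68 for FBXO24 and 7.07 ± 0.74 for UBE2R2. The adjusted p of limma at a false discovery rate (FDR) of 10% was 0.0191, 0.00402 and 0.0121. All 3 contigs were called, where 1.27% of the 38395 contigs tested were called higher in fertile libraries. For each contig every fertile library was above every infertile one, which held for 7.78% of the contigs tested. The call of KLHL10 was lost without fertile library 1 (adjusted p = 0.121) or 2 (0.103), while those of FBXO24 and UBE2R2 held without any of the 6 libraries. Replicates are separate libraries of colonies or pools, so the p-values measure the spread between these, and in whole colonies fewer cells of a type and less RNA per cell cannot be told apart. The testis contigs moved with the 3 contigs, at 4166 to 5795 in fertile and 51.3 to 84.0 in infertile libraries for the sum of 5, and so did the egg contigs, at 1694 to 2663 and 32.9 to 177 for the sum of 3, with none at 0 throughout a group, and their part in the result was not tested.

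Stage B1 gave the same order of groups. KLHL10 had 1737, 1115 and 739 normalized counts in the fertile group and 10.8, 0 and 8.66 in infertile ones. FBXO24 had 2086, 1342 and 639 in fertile libraries against 1.54, 2.07 and 4.33. UBE2R2 had 2910, 1682 and 1117 against 18.5, 2.07 and 10.8. No fertile library overlapped the infertile group. The log2 difference was 7.86 ± 1.00 for KLHL10 (limma adjusted p = 0.0253), 8.45 ± 0.56 for FBXO24 (0.00443) and 7.63 ± 0.77 for UBE2R2 (0.0106). Again 3 of 3 were called, against 1.26% of 38745 contigs, and 3 of 3 did not overlap, against 8.08%. The pooled ratio was 184 for KLHL10 (103 to 369), 584 for FBXO24 (228 to 2145) and 180 for UBE2R2 (114 to 304). For FBXO24, again with no more than 3 read pairs in any infertile library, the ratio of means with 3 pairs taken for each was 235. The call of KLHL10 was lost without fertile library 1 (adjusted p = 0.154) or 2 (0.121) and with limma voom (0.116), and with voom that of FBXO24 was lost as well (0.151). A negative binomial exact test called all 3 at both stages, with an adjusted p of at most 1.81e-12 at A1 and 1.31e-08 at B1, where it called 1.50% and 1.62% of all contigs higher. The testis sum was between 5167 and 11619 in fertile and between 64.9 and 118 in infertile libraries, and ldlr with zp-1 between 1104 and 1810 and between 12.4 and 18.5, and their part was not tested.

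At A2 the fertile group was split. KLHL10 had 1357 and 718 normalized counts in fertile libraries 1 and 2 but 13.9 in library 3, with 4.98, 1.69 and 0 in the infertile libraries. FBXO24 had 1678, 665 and 16.2 against 3.32, 0 and 2.49. UBE2R2 had 1805, 862 and 25.4 against 9.96, 1.69 and 2.49. Fertile library 3 was therefore far below the other fertile libraries for every contig and still above the infertile ones, and it is the library in which the testis and egg contigs were low. The 3 contigs did not overlap between the groups, against 6.95% of all contigs. Their log2 differences of 6.59 ± 1.76 (KLHL10), 6.76 ± 1.73 (FBXO24) and 6.20 ± 1.62 (UBE2R2) were not called, with an adjusted p between 0.704 and 0.727. Limma called 0 of 37192 contigs at this stage (0%), with 2239 at an unadjusted p under 0.05, and the negative binomial exact test called 115 in all and 0.298% higher, without any of the 3 (adjusted p between 0.150 and 0.234). Without fertile library 3 the differences were 8.61, 8.74 and 8.06, and all 3 were called (adjusted p = 0.0354, 0.0327 and 0.0327), against 0.785% of 36957 contigs. A fit over all 42 libraries, in which the groups share an estimate of the spread, also called the 3 at A2 with every library kept (adjusted p = 0.0659, 0.0368 and 0.0636), against 0.998% of contigs. That fit treats libraries of a genotype at different stages as independent, so its p-values can be too small.

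At B2 the fertile levels were the highest of the cycle in some libraries, and infertile library 1 stood above the other infertile libraries. KLHL10 had 1237, 547 and 1981 normalized counts in the fertile group and 155, 11.3 and 2.59 in infertile ones. FBXO24 had 3030, 594 and 2084 against 135, 15.1 and 2.59. UBE2R2 had 2738, 825 and 3206 against 198, 20.8 and 5.17. Fertile library 2 was the lowest of the fertile group for each contig, and infertile library 1 the highest of the infertile group. The groups did not overlap for any of the 3, against 4.90% of contigs. The means differed 22.3-fold for KLHL10, 37.4-fold for FBXO24 and 30.2-fold for UBE2R2. The log2 differences of 5.86 ± 1.41, 6.29 ± 1.40 and 6.02 ± 1.33 were not called by limma (adjusted p between 0.755 and 0.831), which called 4 of 37415 contigs (0.0107%), all higher. The negative binomial exact test called all 3 (adjusted p = 0.0397, 0.0414 and 0.0121), against 0.331% of contigs called higher. The fit over 42 libraries, with the limit given for A2, called FBXO24 (adjusted p = 0.0977) and not the other contigs, against 0.579%. Without infertile library 1 the differences were 7.37, 7.68 and 7.38, with an adjusted p between 0.110 and 0.132, so the limma call was not reached.

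**Figure D2:**
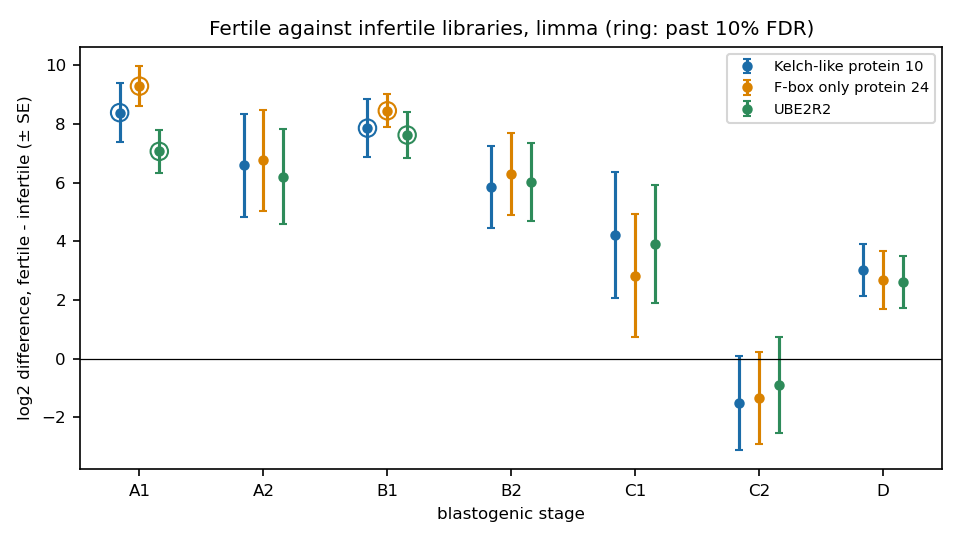
Log2 difference between fertile and infertile libraries (fertile minus infertile, log2(normalized count + 1), ± SE, n = 3 per group) for the 3 contigs at each blastogenic stage, with a ring where limma passed a 10% FDR. The rings stand at A1 and B1, where the differences lay between 7.07 and 9.29, and at C2 the points lie between -1.51 and -0.90 with no ring.

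At C1 the groups overlapped for each contig. KLHL10 had 104, 131 and 498 normalized counts in the fertile group and 339, 0 and 2.15 in infertile ones. FBXO24 had 38.1, 43.5 and 1239 against 300, 2.79 and 4.30. UBE2R2 had 269, 135 and 1274 against 556, 6.97 and 2.15. Infertile library 1 was above the 2 lower fertile libraries for all 3 contigs, and fertile library 3 was the highest of the stage. The means were 244 ± 220 and 114 ± 195 (SD, n = 3) for KLHL10, 440 ± 692 and 102 ± 171 for FBXO24 and 560 ± 622 and 188 ± 318 for UBE2R2, so that each difference of means was smaller than the larger SD of its 2 groups. The log2 differences were 4.22 ± 2.15, 2.83 ± 2.10 and 3.91 ± 2.01, with an adjusted p of 0.926 for each. Limma called 0 contigs (0%), with 1472 at an unadjusted p under 0.05, the negative binomial exact test 5 (0.0131%) and the fit over 42 libraries 12 (0.0314%), and none of the 3 contigs was among them. For none of the 3 did every fertile library lie above every infertile one, which held for 4.40% of contigs. Without infertile library 1 the differences were 6.75, 4.85 and 6.17, with an adjusted p of 0.170, 0.656 and 0.284. The same libraries were highest for the testis contigs, whose sum was 4533 in fertile library 3, 1398 and 1118 in the other fertile libraries, and 2000 in infertile library 1 against 75.2 and 68.9 in the other infertile ones.

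At C2 the infertile mean was the higher one for each contig, through infertile library 1. KLHL10 had 27.6, 5.34 and 8.55 normalized counts in the fertile group and 436, 13.0 and 5.59 in infertile ones. FBXO24 had 10.3, 5.34 and 2.14 against 202, 3.70 and 2.79. UBE2R2 had 27.6, 57.0 and 17.1 against 832, 24.1 and 8.38. The other infertile libraries overlapped the fertile ones, and the highest value of each contig at this stage was in infertile library 1. The log2 differences of -1.51 ± 1.60 (KLHL10), -1.34 ± 1.57 (FBXO24) and -0.90 ± 1.64 (UBE2R2) were not called (adjusted p between 0.854 and 0.922). Limma called 0 contigs (0%), with 2551 at an unadjusted p under 0.05, and the negative binomial exact test 49, of which 43 were higher in fertile (0.112%), and the fit over 42 libraries called 0.128% higher. A separation of all fertile above all infertile libraries was found for 7.25% of contigs and for none of the 3. Without infertile library 1 the difference was 0.32 for KLHL10 and 1.02 for UBE2R2, while FBXO24 fell under the minimum mean of 10 normalized counts and was not tested. The testis sum was 2936 in that library, 55.9 and 81.4 in the other infertile libraries and 224 to 584 in the fertile ones, where ldlr and zp-1 together were at 617 to 2035, and the part of these in the result was not tested.

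At takeover, stage D, the contigs were low in all libraries. KLHL10 had 9.11, 41.6 and 25.9 normalized counts in the fertile group and 1.79, 0 and 6.87 in infertile ones. FBXO24 had 5.47, 41.6 and 19.9 against the same 1.79, 0 and 6.87, which are 1, 0 and 3 read pairs for either contig. UBE2R2 had 27.3, 26.5 and 17.9 against 5.36, 0 and 9.16. The groups did not overlap for KLHL10 and UBE2R2, and they did for FBXO24, against 10.9% of contigs with a separation. The log2 differences of 3.01 ± 0.89, 2.68 ± 0.98 and 2.61 ± 0.88 were not called (adjusted p between 0.378 and 0.407), where limma called 0.0293% of 37571 contigs, the negative binomial exact test 0.466% and the fit over 42 libraries 0.0550%. In that fit over 42 libraries the background was 1.65% at A1 and 1.64% at B1, stages at which it also called all 3 contigs.

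Whether the fertility difference at a stage departed from its mean over the other stages was tested in the 42 libraries on a joint scale. At C2 it was lower by 7.51 ± 1.87 for KLHL10 (adjusted p = 0.237), by 7.40 ± 1.77 for FBXO24 (0.212) and by 6.49 ± 1.73 for UBE2R2 (0.263). These did not pass, where 0.0131% of 38188 contigs were called lower. Without fertile library 3 at A2 all 3 passed (-7.85, -7.73 and -6.80, adjusted p = 0.0518, 0.0386 and 0.0743, against 0.257% of contigs), and so they did without infertile library 1 at C1 (-7.93, -7.74 and -6.87, adjusted p = 0.0691, 0.0743 and 0.0839, against 0.157%). Without infertile library 1 at C2 the departure shrank to -5.68, -5.55 and -4.57, the smallest values when any library was left out, with an adjusted p of 1.00 after rounding for each. At the other 6 stages the adjusted p was 1.00 after rounding for each contig. The fit counts libraries of a genotype at several stages as independent.

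The levels over the cycle were set on the joint scale to compare stages within the fertile group. For each contig the mean was highest at B2, with 1304 ± 749 (SD, n = 3) for KLHL10, 1970 ± 1260 for FBXO24 and 2341 ± 1309 for UBE2R2, and second at B1, with 1060 ± 452, 1201 ± 646 and 1686 ± 822. At A1 the means were 758 ± 192, 1050 ± 259 and 1100 ± 240, and at A2, where the SD was close to the mean because of library 3, they were 825 ± 795, 932 ± 990 and 1063 ± 1053. The means of the 4 stages from A1 to B2 thus lay within a factor of 3 for each contig, and the later stages were lower. C1 came next for each, with 254 ± 233, 461 ± 726 and 582 ± 656. The lowest stage was C2 for KLHL10 (12.5 ± 10.9) and FBXO24 (5.36 ± 3.76) and D for UBE2R2 (24.5 ± 5.29, against 30.5 ± 18.3 at C2). D stood at 26.2 ± 16.6 for KLHL10 and at 22.9 ± 18.6 for FBXO24. No neighbours in these orders differed beyond their spread at a 10% FDR. Of the 21 pairs of stages, limma called 1 for KLHL10, 4 for FBXO24 and 3 for UBE2R2, all between an early or middle stage and C2 or D.

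From B2 to C2 all 3 contigs fell. The log2 difference was -6.71 ± 1.73 for KLHL10 (adjusted p = 0.0832), -8.17 ± 1.64 for FBXO24 (0.0244) and -6.16 ± 1.61 for UBE2R2 (0.0896), where 0.448% of 38188 contigs were called lower. The testis contigs were lower in the same libraries, with sums on the scale of each stage of 9747, 4114 and 11045 at B2, of 443, 584 and 224 at C2 and of 374 to 406 at D, while ldlr with zp-1 had 1001 to 1435, 617 to 2035 and 399 to 1162, and their part was not tested. From B2 to D FBXO24 (-6.46, adjusted p = 0.0393) and UBE2R2 (-6.32, 0.0391) fell, against 1.09% of contigs, while KLHL10 (-5.63, 0.102) was not called. FBXO24 also fell from B1 to C2 (-7.58, adjusted p = 0.0472, against 0.225% of contigs) and from A1 to C2 (-7.52, 0.0690, against 0.157%), and UBE2R2 fell from B1 to D (-5.96, 0.0858, against 0.516%). These pair calls depended on single libraries. None of the 8 held without every fertile library of its pair in turn, and each was lost in 2 to 6 of 6 such fits, with the direction kept in all.

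**Figure D3:**
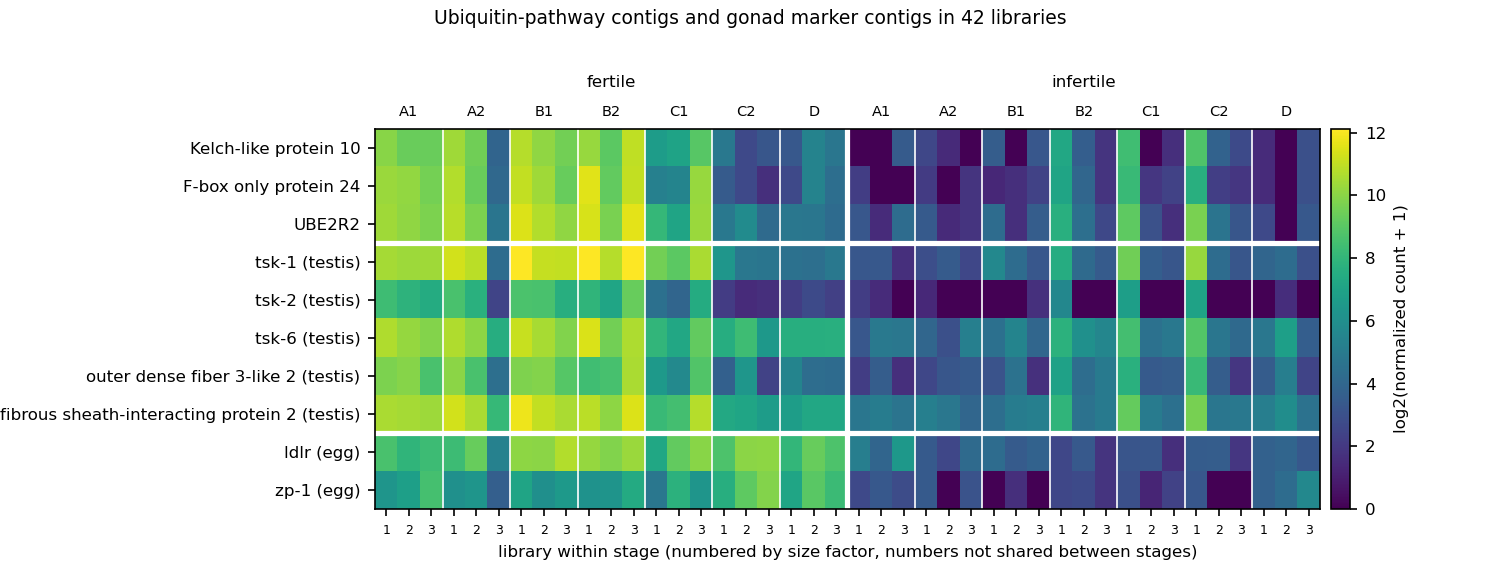
Log2(normalized count + 1) in 21 fertile and 21 infertile libraries ordered by blastogenic stage, one row per contig. Rows are the 3 ubiquitin-pathway contigs, the testis contigs and the egg contigs ldlr and zp-1. Among the fertile columns from A1 to B2 the one with low testis rows is library 3 at A2 (testis sum 510). The infertile columns with high testis rows are library 1 at B2, C1 and C2 (testis sums 813, 2000 and 2936). In those 3 ldlr and zp-1 are low, while the egg contig vitellogenin, not shown, had 68.2, 136 and 678 normalized counts.

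The 3 contigs varied together over the libraries. Within the 21 fertile libraries Pearson's r of the log2 values was 0.961 between KLHL10 and UBE2R2, 0.960 between FBXO24 and UBE2R2 and 0.979 between KLHL10 and FBXO24. Within the 21 infertile libraries it was 0.943, 0.895 and 0.851, and Spearman's rho was 0.901, 0.655 and 0.583. Without infertile library 1 at B2, C1 and C2 the infertile r fell to 0.771, 0.506 and 0.350 over 18 libraries, while without library 3 at A2 the fertile r was at least 0.958 for each pair. Libraries of a genotype recur over the stages, so these are descriptions. In the fertile libraries the shared change of level between stages, such as the fall from B2 to C2, adds to r. Over all 42 libraries, where the separation of the groups adds to r, the contig closest to KLHL10 among the 38187 others with a value in every library was UBE2R2 (r = 0.974), and the closest to UBE2R2 was KLHL10. Among the contigs most like FBXO24, UBE2R2 was at rank 11 (r = 0.961) and KLHL10 at rank 19 (0.956).

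Several of the other nearest contigs have a named homolog. After UBE2R2 the nearest to KLHL10 were Bot_c18241, which has no homolog (r = 0.971), CAP3_round1_contig_5576 (Histone H2B type 1-L, a core histone, 0.966), Bot_c2194 (phosphodiesterase 10A, which breaks down cyclic nucleotides, 0.965) and CAP3_round1_contig_6946 (0.964). The nearest to FBXO24 were Bot_c252 (0.972), Bot_rep_c45613 (testis-specific serine/threonine-protein kinase 1, a kinase of spermatids in mammals, 0.971), CAP3_round1_contig_7048 (0.971), Bot_c20850 (0.967) and Bot_rep_c45450 (0.966). After KLHL10 the nearest to UBE2R2 were Bot_rep_c35625 (serine racemase, which makes D-serine, 0.972), CAP3_round1_contig_7597 (0.970), Bot_c18241 (0.969) and Bot_rep_c35521 (MORN repeat-containing protein 5, 0.968). At B2 the nearest kinase, Bot_rep_c45613, had a mean of 1637 normalized counts in the fertile and 23.6 in the infertile libraries, and at C2 9.96 and 129. Since this contig was picked by its correlation with FBXO24 in these same libraries, its likeness to the 3 contigs follows from that choice. For the 5 testis contigs r was 0.875 to 0.941 with KLHL10, 0.908 to 0.959 with FBXO24 and 0.892 to 0.949 with UBE2R2. With KLHL10, FBXO24 and UBE2R2 it was 0.662, 0.640 and 0.680 for ldlr and 0.512, 0.512 and 0.504 for zp-1, and the 4 germ cell contigs had between -0.23 and 0.74.

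The proportions of the 3 contigs within a library, which do not depend on its depth, were followed where UBE2R2 had at least 50 read pairs. From A1 to B1, in 8 fertile libraries, there were 57.2 to 102 read pairs of FBXO24 per 100 of UBE2R2 (median 84.3) and 58.3 to 83.3 of KLHL10 (median 69.8). At B2, in 3 fertile libraries and infertile library 1, the range was 65.0 to 111 for FBXO24 and 45.2 to 78.2 for KLHL10. At C1 and C2 the range for FBXO24 widened downward, to between 14.1 and 97.3 over 5 libraries (median 32.1), with 14.1 in fertile library 1 at C1 (95% interval 9.08 to 21.2, counting error only) and 24.3 in infertile library 1 at C2 (19.7 to 29.8). KLHL10 stood at 38.7 to 96.4 (median 52.4) in the same libraries. It was below its early range in fertile libraries 1 and 3 at C1 (38.7, interval 29.2 to 50.9, and 39.1, interval 31.3 to 48.7). Fertile library 1 at B2 (45.2, interval 41.4 to 49.3) was also below it. So was infertile library 1 at C2 (52.4), with an interval that reached into the range (44.8 to 61.1). Fertile library 2 at C1 stood above the range at 96.4, with an interval that overlapped it (65.1 to 143). In infertile library 1 FBXO24 per 100 UBE2R2 was 68.1 at B2, 54.0 at C1 and 24.3 at C2, and KLHL10 was 78.2, 61.0 and 52.4. The lowest FBXO24 value at A1 to B1 was 57.2 (48.6 to 67.3). Its interval lay above those of fertile library 1 at C1 and infertile library 1 at C2. It overlapped that of fertile library 2 at C1 (17.8 to 55.5), while fertile library 3 at C1, at 97.3, lay within the early range. The early libraries were all fertile, while no fertile library at C2 had 50 UBE2R2 read pairs. These ratios were not tested between stages.

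**Figure D4:**
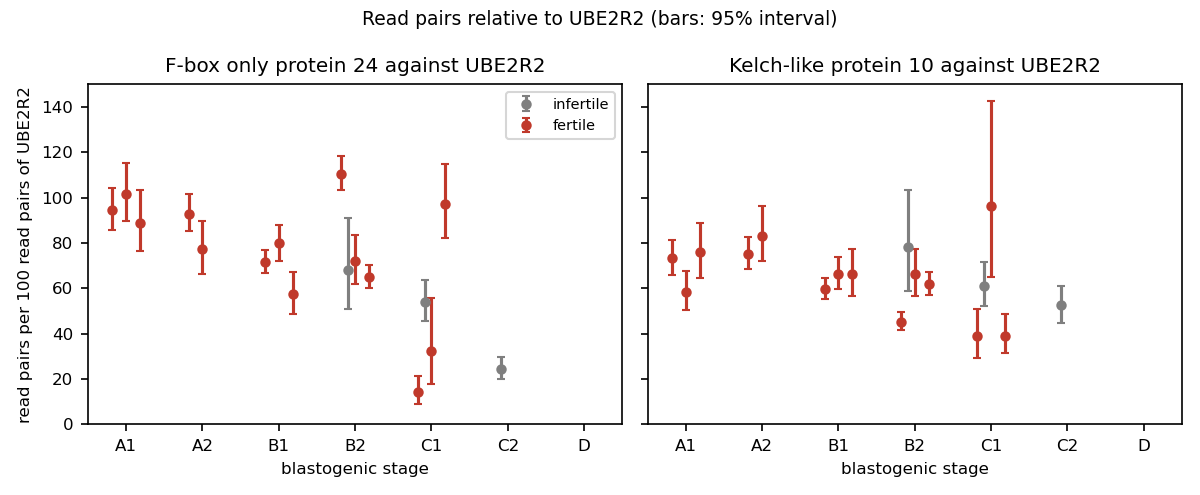
Read pairs of FBXO24 (left) and KLHL10 (right) per 100 read pairs of UBE2R2 by blastogenic stage, with a point for each of 17 libraries that had at least 50 UBE2R2 pairs and bars for the 95% interval of counting error. For FBXO24 the points of A1 to B1 lie between 57.2 and 102 and those of C1 and C2 reach down to 14.1, while the points of KLHL10 lie between 58.3 and 83.3 at A1 to B1 and between 38.7 and 96.4 at C1 and C2.

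A further 8 contigs carry the name Kelch-like protein 10 in the sheets of the study, 7 by their human homolog and Bot_rep_c36905 by its Ciona homolog only. Reads can be split between contigs of the same gene or family, so their values are uncertain to that extent, and most were listed because of the tests of the study. At A1 6 of the 8 reached the minimum level for a test and limma called 3 higher, beside 1.27% of all contigs, with log2 differences of 5.83 ± 0.63 for Bot_c12760 (limma adjusted p = 0.0136), 5.97 ± 0.54 for Bot_c24963 (0.00710) and 4.79 ± 0.84 for Bot_rep_c36905 (0.0919). At B1 7 were tested and limma called the same 3, beside 1.26% of all contigs, with 5.86, 7.60 and 4.04. At the other 5 stages limma called none of the 8. The negative binomial exact test called 5 of them higher at A1, 4 at B1, 2 at B2 (Bot_c12760, adjusted p = 0.00268, and Bot_c24963, 0.00883) and none at the other stages, beside 1.50%, 1.62% and 0.331% of all contigs at A1, B1 and B2. Bot_c12760 had 272, 237 and 284 normalized counts in the fertile and 1.77, 11.0 and 2.06 in the infertile libraries at A1. The most abundant, CAP3_round1_contig_433, had 1265, 568 and 1057 in fertile and 1.77, 29.2 and 201 in infertile libraries at A1. It thus held 201 in infertile library 3, where the contig Bot_c2674 had 10.3, and 29.2 (16 read pairs) in library 2, where Bot_c2674 had 0. In the infertile libraries it had 184, 0 and 32.3 at A2 and 7.71, 20.7 and 318 at B1. The highest infertile values of Bot_c2674 at these stages were 4.98 and 10.8. At A1 the difference of CAP3_round1_contig_433, 5.15 ± 1.50, was not called by limma (adjusted p = 0.489), while the negative binomial exact test called it (adjusted p = 2.70e-05). Over the 42 libraries r with Bot_c2674 was 0.934 for Bot_c24963, 0.898 for Bot_c12760, 0.824 for CAP3_round1_contig_433 and 0.688 for Bot_c22373.

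Other genes of the ubiquitin system were taken from a list of 35 contigs, every contig in an alphabetical stretch of the annotation whose homolog name holds ubiquitin, Kelch, F-box or RING finger, whatever its values. It shares Bot_c11083 with the Kelch-like protein 10 contigs. At A1 26 of the 35 were tested, limma called 1 higher and none lower, beside 1.27% of all contigs called. Their median log2 difference was 0.16, where that of all contigs was 0.02, and 18 of the 26 were above 0. The contig called was Bot_c106, homolog of F-box only protein 39, another F-box protein. It had 283, 280 and 291 normalized counts in the fertile and 1.77, 0 and 0 in the infertile libraries, a log2 difference of 7.67 ± 0.49 (limma adjusted p = 0.00379). Next were Kelch-like protein 3, a cullin 3 adaptor known for its part in renal salt transport in human (2.08 ± 0.69, adjusted p = 0.601), and ubiquitin carboxyl-terminal hydrolase 40, an enzyme that removes ubiquitin (1.82 ± 0.69, 0.693). At the other end stood Kelch-like protein 2 (-0.87 ± 0.70), ubiquitin-protein ligase E3B (-0.64 ± 0.43) and Kelch-like protein 13 (-0.52 ± 0.56), none of which passed.

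At the other stages 25 or 26 of the list were tested, and the only limma call was again F-box only protein 39 at B1, where 1.26% of all contigs were called higher, with 716, 304 and 178 normalized counts in the fertile and 1.54, 2.07 and 2.16 in the infertile libraries (log2 difference 6.87 ± 0.56, adjusted p = 0.00545). The median of the list lay between 0.06 at B2 and 0.28 at C1, and that of all contigs between -0.01 and 0.02. In the libraries that stood apart F-box only protein 39 was low or high where the 3 contigs were. It was at 2.31 in fertile library 3 at A2, where the other fertile libraries had 373 and 222. Unlike the 3 contigs, it was not above all infertile libraries there, which had 3.32, 0 and 2.49. In infertile library 1 it was at 54.9 at B2, 122 at C1 and 86.5 at C2, where the other infertile libraries had between 1.85 and 11.2. At C2 its fertile libraries had 3.45, 3.56 and 8.55.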

How the data were processed

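RNA of whole colonies was sequenced as poly-A paired-end libraries. The authors trimmed the first 12 bases, aligned the reads to the assembled contigs with Bowtie 0.12.7, made counts with Sam2Counts (SAMtools 0.1.18) and normalized them with DESeq 1.10.1 at each stage. The deposited tables, 1 per stage, hold as signal the mean of normalized counts of each group (the authors' means), beside the fold changes, their log2 values, p-values and adjusted p-values of the authors' own comparison, which were not used. Other tools in the submitters' notes, such as RSEM 1.2.3, were not needed here.

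For each group and stage 3 step sizes, one per library, were sought that build the deposited means from whole read pairs. Each contig with a group mean of at most 9000 gave a single solution (99.2% to 99.5% of contigs), 259 to 421 contigs per group above it were left out, and recomputed size factors were 0.994 to 1.00 times those recovered. The recovery was tested on simulated means. Replicates differed beyond sampling noise in all 42 pairs (chi-square per degree of freedom at least 4.96), so each counted once.

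Log2(normalized count + 1) was tested with limma 3.58.1 in R 4.3.3, 2-sided, at each stage, for contigs whose mean reached 10 normalized counts, with a Benjamini-Hochberg FDR of 10%. Stages were compared in a fit of 42 libraries with joint size factors. With 3 against 3 libraries an exact permutation test cannot go below p = 0.1 and was not used. Both tests were run on simulated libraries first. A count of 0 was taken to allow 3 read pairs. Python 3.11.15 was used for the rest.

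The named contigs are the 3 given by identifier, those that share the name of one of them, a list of 35 ubiquitin-pathway contigs with the 3 largest log2 differences in each direction at A1, the 5 contigs with the highest correlation to each, and the gonad markers. Bot_rep_c45613 was shown at B2 and C2 after its values were seen. The contigs, lists and markers were chosen with earlier results of these data known. Alternatives covered pseudocounts of 0.5 and 10, filters, scaling, limma with a trend, voom, the negative binomial exact test, a 5% FDR, the 42-library fit and leaving out each library.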

Additional observations from a re-analysis of the deposited data

How the results depend on the processing

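Under other settings 218 comparisons of the 3 contigs between the groups kept their direction and their side of the threshold, 7 now passed it and 2 no longer did. Those that passed were KLHL10, FBXO24 and UBE2R2 at A2 in the 42-library fit (6.72, 6.89 and 6.28), FBXO24 at B2 in that fit (6.31) and all 3 at B2 in the negative binomial exact test (4.46, 5.20 and 4.90). Those lost were KLHL10 (7.76) and FBXO24 (8.57) at B1 with limma voom. The cause was not tested. Leaving out a library gave 7.81 to 9.56 for KLHL10 at A1 and 6.72 to 8.50 at B1. At A2 it gave 5.35 to 8.61 for KLHL10, 5.44 to 8.74 for FBXO24 and 5.01 to 8.06 for UBE2R2, and at C2 -2.70 to 0.32 for KLHL10 and -2.22 to 1.02 for UBE2R2. The fertility difference against the other stages ranged at C2 from -8.70 to -5.68 for KLHL10, from -8.41 to -5.55 for FBXO24 and from -7.81 to -4.57 for UBE2R2, at B2 from -0.12 to 2.61 for KLHL10, and at C1 from -2.48 to 1.73 for KLHL10 and from -2.33 to 1.41 for UBE2R2. Between adjacent stages in fertile libraries it ranged from A1 to A2 from -2.60 to 0.65 for KLHL10, from -3.02 to 0.29 for FBXO24 and from -2.59 to 0.45 for UBE2R2, from A2 to B1 from -0.23 to 3.03 for KLHL10 and from -0.22 to 3.08 for FBXO24, from B1 to B2 from -0.23 to 0.70 for KLHL10 and from -0.0016 to 0.98 for UBE2R2, and from C2 to D from -0.55 to 0.28 for UBE2R2. None of these adjacent contrasts was called with all libraries.

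The pairs of stages were varied after the data were seen. With a pseudocount of 10 KLHL10 also passed for C2 against A1 (-5.17) and B1 (-5.59) and for D against B1 (-4.91) and B2 (-5.11), UBE2R2 for C2 against A1 (-4.85) and B1 (-5.37), and FBXO24 for D against B1 (-5.21). Scaling by the total of recovered reads lost UBE2R2 for C2 against B2 (-5.96). With 1 normalized count added to both means, the ratio of means of FBXO24 was 488 at A1 and 372 at B1, in place of 901 and 512. Scaling by total reads moved the median of all contigs to between 0.08 and 0.24, from -0.01 to 0.02, and no direction of the 3 contigs turned.

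Counts of contigs called over all contigs moved by over 1.5 times in several settings. Limma called 489, 0, 488, 4, 0, 0 and 11 from A1 to D. With voom 186 were called at A1, 73 at B1, 1 at C2 and 0 at B2 and D. From A2 to D, without B1, the 42-library fit called 409, 232, 12, 52 and 24, and the negative binomial exact test 115, 126, 5, 49 and 211. At A2 a pseudocount of 0.5 gave 9. At B2 a 5% FDR gave 0, a mean of at least 50 gave 7 and total scaling 8. At C2 a pseudocount of 10 gave 9, and a mean of at least 50 and a trend each 1. At D a 5% FDR gave 3 and a pseudocount of 10 gave 36. Leaving out a library gave 241 to 697 at A1, 0 to 291 at A2, 204 to 936 at B1, 0 to 61 at B2, from 0 to 4 at C1, up to 251 at C2 and up to 666 at D, the last 2 from 0.

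No paired analysis was made, because the deposited means name no library and recovered libraries were not given names by matching their values to other counts. Infertile groups with few read pairs limit the precision of the ratios at A1, A2 and B1.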
